A study of Mus musculus with 89 samples.

Results

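The chemokine ligands were examined in neutrophil-rich segments of mouse squamous cell carcinoma. The members are all targets named Ccl or Cxcl followed by digits, with an ending letter allowed, plus Xcl1 and Cx3cl1, which gave 37 of the 19962 targets of the panel. By the cells they are best known to attract, 5 were grouped as neutrophil-attracting, 9 as monocyte-attracting, 17 as lymphocyte-attracting and 6 as other ligands. Of the 37, 16 were above the limit of quantitation in at least 10% of the segments, 20 in at least 1 segment but fewer than that, and 1, Xcl1, in none of 89.

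The study used GeoMx, a method in which tagged probes are released by ultraviolet light from chosen regions of a stained section and counted by sequencing. Each of the 89 segments is labelled as neutrophil, from 3 slides, 1 per stage, and the annotation places each segment in 1 of 7 classes. The naive slide, annotated as pre-treatment, held 15 stroma segments, 13 interface segments (near cancer cells) and 14 segments within the tumour, which the annotation also marks as mixed with cancer cells. The acute slide held 9 stroma and 2 interface segments and the relapse slide 14 and 22, both annotated as post-treatment; no segment within the tumour was annotated on them. The scan of the naive slide is named for HRass and that of the relapse slide for DMBA, a chemical carcinogen, while the acute scan is named only as treated. The scan names thus give different tumour models for naive and relapse, and one slide column calls the relapse slide treated. The immunotherapy, the mouse strain and the animals are not named in the sources used here. The labels give the tumours as spontaneous.

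Chemokines are small secreted proteins that guide leukocytes by binding G protein-coupled receptors. CXC ligands with an ELR motif act through CXCR2 and draw neutrophils, ligands of CCR2 and CCR1 draw monocytes and macrophages, and ligands of CXCR3, CXCR6 and CCR7 draw lymphocytes and dendritic cells. In skin and squamous carcinoma, keratinocytes, fibroblasts, macrophages and neutrophils themselves are all known sources, so a ligand measured in a neutrophil segment need not come from a neutrophil.

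Depth limits every value here. The summed counts of 2 or more per segment ranged from 917 to 228562, with class medians between 5565 in the relapse interface and 81873 in the acute stroma, and 3 segments held fewer than 2000 counts. The deposited signal has a floor of 1 count, which is worth a median of 1.87 signal units in the naive stroma and interface, 0.748 in the acute stroma and 3.74 within the naive tumour and in both relapse classes. A signal at the floor is therefore higher in a shallow segment, and signals near the floor cannot be compared between classes of different depth. Many segments come from the same tissue, and their number exceeds that of the animals, so every p-value computed over segments is too small. Stage cannot be told apart from slide or, between naive and relapse, from plate or the tumour model in the scan names. The neutrophil label was checked against 14 marker genes. S100a8 was above the limit of quantitation in 44 segments and S100a9 in 38, but Ly6g was above it in 6, Csf3r and Cxcr2 in 4 each and Ltf in 0 of 89. Col1a1, a fibroblast collagen, was above it in 77. The segments are therefore called by their class below. In such mixed segments fewer cells of a type and less RNA per cell cannot be told apart.

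Each segment's limit of quantitation was set from its negative probes, as their geometric mean multiplied by the square of their geometric SD, and never below 2 counts. Over all segments 12.8% of the member and segment pairs exceeded it, against 8.35% for all targets. At the floor of 1 count were 64.4% of the member values and 69.1% of all values. Pooled over segments, the members' counts were a median of 1.45 times the negative probes, against 1.34 times for all targets, and 23 of 37 members lay above that median. The range ran from 1.01 times for Xcl1, which attracts cross-presenting dendritic cells, to 5.47 times for Ccl8. Counts of different probes depend on the probe as well as on the RNA, so this order is one of signal and not of transcript number. In 80 of 89 segments at least 1 member exceeded the limit, with a median of 3 members per segment and a highest of 15. The share of tested targets on the panel was 25.5%, and 16 of 37 members were tested.

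Detection by role differed between classes. Neutrophil-attracting ligands exceeded the limit in 8% of pairs in the naive stroma, 16.9% in the naive interface and 14.3% within the naive tumour, where all targets did in 10.5%, 16.7% and 8.87%. They exceeded it in 0% of pairs in the acute stroma, 7.14% in the relapse stroma and 5.45% in the relapse interface, against 7.29%, 5.51% and 4.00% of all targets. In the acute interface, with 2 segments, they did in 2 of 10 pairs (20%), against 6.57% of all targets. Both pairs, Cxcl2 and Cxcl3, came from the same segment. Monocyte-attracting ligands ranged from 24.4% in the naive stroma and 22.2% in the naive interface to 6.35% within the naive tumour. Ccl8 alone gave 14 of their 33 pairs in the naive stroma and 1 of 26 in the naive interface. Lymphocyte-attracting ligands were highest in the naive interface, at 27.1%, and lowest in the relapse interface, at 6.42%. The other ligands had the highest share of any role, 33.3% in the naive stroma, and only 3.79% in the relapse interface. Most of their naive stroma pairs were Cxcl12 and Cxcl14. These shares follow depth and each segment's limit as well as expression, and no test was made on them. The median limit was 9.25 counts in the acute stroma (2 to 17.3) and 6.82 in the acute interface. In the naive and relapse classes it was 2 to 2.37, so a count that passes there may not pass in the acute classes.

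**Figure D1:**
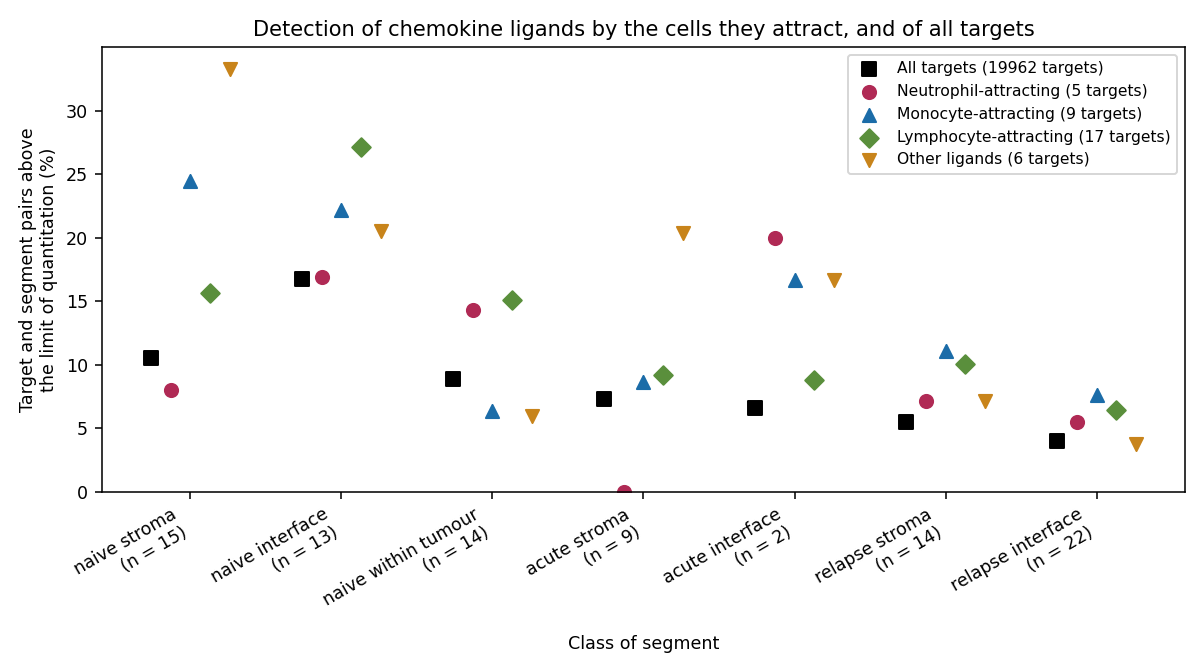
Percentage of target and segment pairs above the limit of quantitation (vertical axis) in each of the 7 classes, for the 4 role groups and for all 19962 targets. The other ligands stand highest in the naive stroma, at 33.3% against 10.5% for all targets, and the neutrophil-attracting ligands lie at 8% there.

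**Figure D2:**
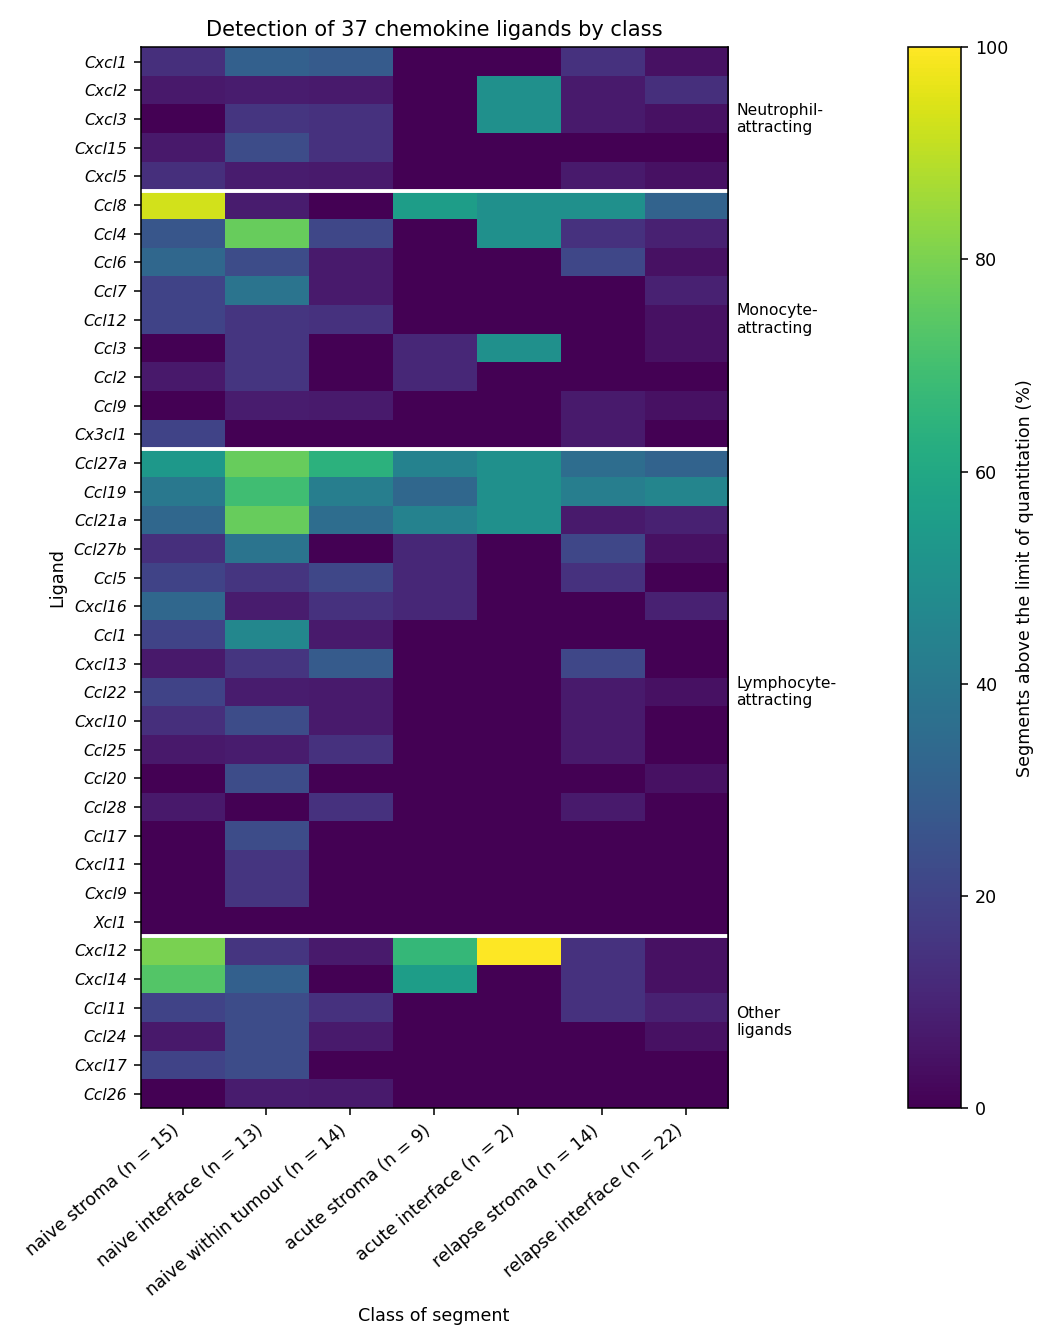
Percentage of segments above the limit of quantitation (colour) for each of the 37 ligands (rows, grouped by role) in each class (columns). Ccl8, Cxcl12 and Cxcl14 are bright in the naive stroma, where 14, 12 and 11 of 15 segments exceeded the limit; the acute interface column rests on 2 segments.

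The ligands of the naive stroma were Ccl8, Cxcl12 and Cxcl14. Ccl8, a ligand of CCR2 and in the mouse of CCR8, was above the limit in 35 segments. Cxcl12, the CXCR4 ligand made by fibroblasts and other stromal cells, was above it in 26, and Cxcl14, a ligand common in skin, in 23. Among all 19962 targets their pooled counts over the negative probes stood at the 99.3, 98.4 and 98.1 percentiles. Ccl8 lies on chromosome 11 (82115185 to 82116799, mm10), Cxcl12 on chromosome 6 (117168535 to 117181368) and Cxcl14 on chromosome 13 (56288643 to 56296811). In the naive stroma Ccl8 counts were 2, 9 and 58 (lowest, median, highest), and 14 of 15 segments exceeded the limit. In the naive interface they were 1, 2 and 10 (1 of 13), and within the naive tumour 1, 1 and 2 (0 of 14, which allows a share of up to 21.4%). The naive stroma was the high class, but several of its segments held 2 to 4 counts, as several interface segments did, so the classes overlapped, while only the stroma segment of 2 counts reached down to the counts within the tumour. Cxcl12 counts were 1, 5 and 38 in the naive stroma (12 of 15 above the limit), 1, 2 and 7 in the interface (2 of 13) and 1, 1 and 4 within the tumour (1 of 14). Cxcl14 counts were 1, 5 and 27 (11 of 15), 1, 2 and 8 (4 of 13) and 1, 1 and 2 (0 of 14). Both had the same order of classes and overlapped at the low end.

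Ccl8 and Cxcl12 were high and low in the same naive classes, and the 250 bases before their annotated starts are shown, from RefSeq (GRCm38.p6), with capitals marking matches to the motifs searched. The window of Cxcl14 in that table lies inside the annotated gene and is not shown. Ccl8 is at chr11:82114935-82115184 and Cxcl12 at chr6:117168285-117168534, both on the plus strand.
Ccl8: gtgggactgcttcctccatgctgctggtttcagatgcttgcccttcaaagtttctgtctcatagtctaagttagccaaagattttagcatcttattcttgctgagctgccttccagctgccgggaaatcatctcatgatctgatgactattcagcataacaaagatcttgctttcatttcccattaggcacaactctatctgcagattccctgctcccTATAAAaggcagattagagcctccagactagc
Cxcl12: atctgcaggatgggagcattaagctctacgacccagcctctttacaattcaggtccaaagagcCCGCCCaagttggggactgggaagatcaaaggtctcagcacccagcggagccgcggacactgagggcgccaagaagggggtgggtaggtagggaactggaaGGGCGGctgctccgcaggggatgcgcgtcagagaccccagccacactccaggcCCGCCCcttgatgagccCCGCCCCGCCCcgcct
The motifs were searched on both strands: the TATA box TATAAA, in 12.4% of 32851 upstream windows of this length, the CCAAT box CCAAT (33.8%), the GC box GGGCGG (32.7%), the NF-kB site (0.356%), the AP-1 site TGANTCA (6.75%) and the GAS element TTCNNNGAA (7.02%). The Ccl8 window held 1 match, TATAAA, 32 bases before the start. The Cxcl12 window held 5 matches to the GC box, whose first bases lie 187, 86, 33, 16 and 11 bases before the start, the last 2 overlapping. GC content was 44.8% for Ccl8 and 64.4% for Cxcl12, against a median of 52.4% over all windows. A match describes the letters only. Of the 37 members, 28 have an entry in the table.

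Between naive interface and stroma 11.1% of the 5087 tested targets passed the test (limma on log2 of signal plus 1, Benjamini-Hochberg adjusted p under 0.05); 10.5% of the tested targets were called lower in the interface and 0.531% higher. Of the 16 tested ligands 4 were lower and 0 higher, and their median log2 change was -0.16 against -0.15 for all tested targets. Of the called targets 4.8% were higher, and 43.4% with counts over the negative probes. Mean signal of Ccl8 was 5.54 ± 9.70 (SD, n = 13) in the interface and 22.1 ± 13.98 (SD, n = 15) in the stroma, a log2 change of -2.07 (SE 0.353, limma adjusted p = 5.85e-06). Cxcl12 was at 12.2 ± 6.84 in the stroma and 4.71 ± 6.56 in the interface (log2 change -1.38, SE 0.257, limma adjusted p = 2.97e-05). For Cxcl14 the means were 13.96 ± 9.62 in the stroma and 5.23 ± 7.59 in the interface (log2 change -1.35, SE 0.295, limma adjusted p = 0.000447). Cxcl16, a membrane-bound ligand of CXCR6 on T cells, was the other ligand called, with 6.47 ± 6.83 and 2.57 ± 1.23 (log2 change -0.84, SE 0.206, limma adjusted p = 0.00226). Cxcl16 exceeded the limit in 5 of 15 stroma segments, with counts of 1, 2 and 15, and in 1 of 13 interface segments, with counts of 1, 1 and 6. Outside the naive stroma it did so in 6 of 74 segments (8.11%), under the 10% of the filter. Cxcl16 was thus tested only through the class where it is high, and its calls against that class are given as a description.

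Within the naive tumour, 3.66% of the tested targets differed from the stroma, 3.44% being lower and 0.216% higher. Ccl8, Cxcl12 and Cxcl14 were the 3 ligands that passed, again all lower, and the ligands' median log2 change was -0.07 against -0.01 for all tested targets. Ccl8 signal within the tumour was 3.38 ± 1.46 (SD, n = 14), a log2 change from the stroma of -2.13 (SE 0.346, limma adjusted p = 1.21e-06). Cxcl12 was at 3.70 ± 1.35 (log2 change -1.33, SE 0.252, limma adjusted p = 6.19e-05) and Cxcl14 at 3.29 ± 0.896 (log2 change -1.48, SE 0.289, limma adjusted p = 0.000102). Both means lie near the value of 1 count, 3.74. Scaled to the same total of counts, 98.5% of the called targets were higher within the tumour in place of 5.91%, the median of all tested targets moved to 0.53, and 38.8% of tested targets were called. Of 16 ligands 6 were called, 5 higher and 1, Ccl8, lower (-1.09, limma adjusted p = 0.00884). Between tumour and interface 0.059% of tested targets passed (0.0393% higher) and 0 of 16 ligands did; scaled to the same total 10 ligands were called, all higher, where 84.5% of tested targets were called, and over the negative probes 3, all lower, where 8.51% were.

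The location of a segment and the piece of tissue it lies in were not independent. Pieces were told apart by the positions of the regions on the slide, since no column names them, and the naive slide had 6. Of the 15 naive stroma segments 6 lay in piece 3 and 4 in piece 5, where no interface segment was taken, while 8 of the 13 interface segments lay in piece 4. In piece 4, the one with most segments of several locations, Ccl8 counts were 2 and 3 in the 2 stroma segments, 1 to 4 in 8 interface segments and 1 to 2 in 7 tumour segments, so the locations overlapped. In piece 1 Ccl8 counts were 33, 51 and 58 in the stroma (depth 42029 to 114232), 10 in the single interface segment (depth 9552) and 1 in each of 3 tumour segments (depth 1262 to 3123). As signal the piece 1 interface segment was at 37.4 for Ccl8, 26.2 for Cxcl12 and 29.9 for Cxcl14. The piece 1 stroma medians were 36.2, 18.7 and 13.4, so the interface was not lower there. In piece 4, the other naive piece with both locations, interface medians were 1.87, 2.18 and 2.37. Its stroma medians were 3.74, 6.54 and 3.27. With the piece as a fixed block, a setting added after seeing the data, 0 of 16 ligands passed in either comparison, but of all tested targets 0% passed in the interface and 0.727% within the tumour. Ccl8 was then at -1.12 (SE 0.459, limma adjusted p = 0.326) in the interface and -1.43 (SE 0.412, limma adjusted p = 0.0632) within the tumour, Cxcl12 at -0.99 (limma adjusted p = 0.218) and -0.96 (limma adjusted p = 0.0865), and Cxcl14 at -0.60 (limma adjusted p = 0.585) and -0.93 (limma adjusted p = 0.189). Without piece 4 the interface calls were also lost: Ccl8 was at -1.64 (limma adjusted p = 0.0837), Cxcl12 at -0.89 (0.219), Cxcl14 at -1.17 (0.159) and Cxcl16 at -0.87 (0.101), each an adjusted p from limma. Cxcl16 also lost its call without piece 5, at -0.57 (limma adjusted p = 0.0713). All of these log2 changes were below 0.

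Markers of other cells moved with these ligands. All 8 fibroblast markers fell from naive stroma to interface, with a median log2 change of -2.14, and all 8 fell to the tumour, with a median of -2.59. Their summed level per target ranged from 1.66 to 29.5 per 10000 counts in the naive stroma, 0.901 to 28.8 in the interface and 0 to 4.20 within the tumour. Of 10 macrophage markers 8 were called lower in the interface (median -0.97) and 6 in the tumour (median -0.96), with all 10 below 0 in both. The summed level of the macrophage markers ranged from 0.459 to 9.84, 0.298 to 12.7 and 0 to 49.9. All 9 tested keratinocyte and 3 tested endothelial markers were also below 0 in the interface (medians -0.30 and -0.50), with 1 of each called. Within the tumour 6 of the 9 and 1 of the 3 were above 0. The part of these markers in the ligand differences was not tested. All 35 segments with Ccl8 above the limit also had Col1a1 above it, 33 had Apoe, and 18 had C1qa, a complement gene of macrophages. Over all 89 segments Col1a1 exceeded the limit in 77, Apoe in 54 and C1qa in 23. Col1a1 was above it in most segments, so overlap with it says little. Of the 23 segments with C1qa, 18 also had Ccl8. The overlap was not tested. At least 2 of Ccl8, Cxcl12 and Cxcl14 exceeded the limit together in 14 of 15 naive stroma, 2 of 13 naive interface and 0 of 14 tumour segments. The same was so in 6 of 9 acute stroma, 4 of 14 relapse stroma and 2 of 22 relapse interface segments, and all 3 exceeded it together in 13 of 89.

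**Figure D3:**
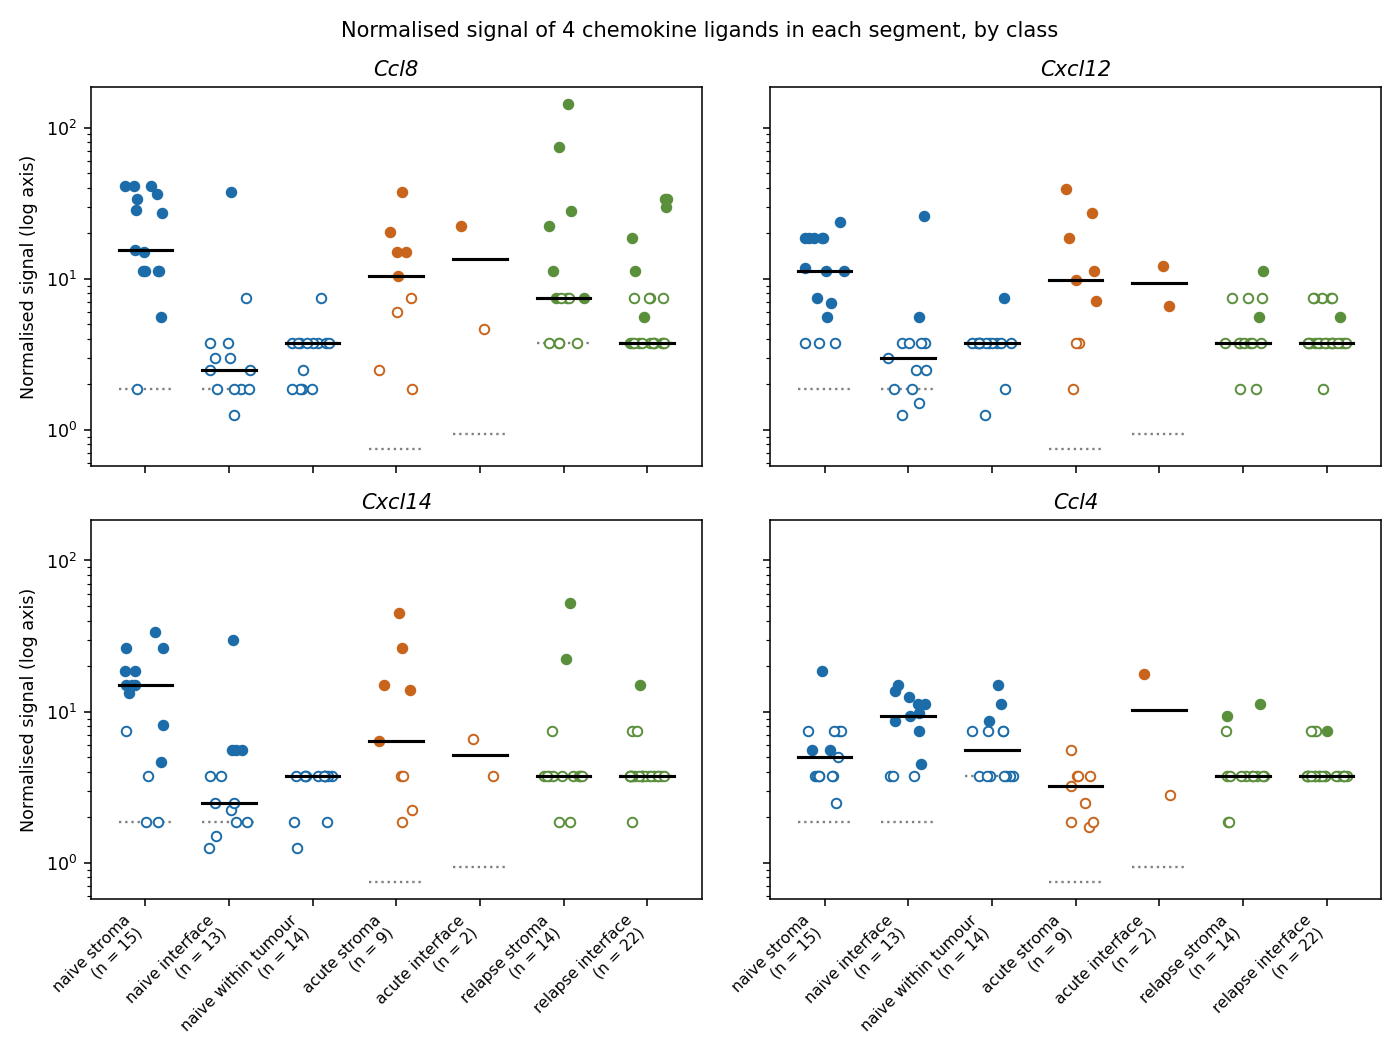
Normalised signal (log axis) of Ccl8, Cxcl12, Cxcl14 and Ccl4 in every segment, by class; filled points exceed the limit of quantitation, open points do not, black bars are class medians and dotted lines the median signal of 1 count in the class. Ccl8 medians fall from 15.6 in the naive stroma to 2.49 in the naive interface, and Ccl4 is filled in 10 of 13 naive interface segments.

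The acute stroma carried the stromal ligands in part of its segments. Ccl8 counts there were 1, 8 and 52 with 5 of 9 above the limit, Cxcl12 counts 2, 5 and 51 with 6 of 9, and Cxcl14 counts 1, 7 and 26 with 5 of 9. The segments spread from the floor to the highest naive values. Of the tested targets 0.0197% differed between acute and naive stroma and 0 of 16 ligands did, with 6 ligands at an unadjusted p under 0.05 and a median log2 change of -0.36, against -0.12 for all tested targets. Signal of Ccl8 was 12.9 ± 11.05 (SD, n = 9). In the relapse stroma Ccl8 counts were 1, 2.5 and 38 with 7 of 14 above the limit, and signal ranged from 3.74 to 142 around a median of 7.48. The 2 highest relapse values, 142 and 74.8, exceeded every naive stroma value, whose highest was 41.1. The mean of 23.6 ± 38.9 (SD, n = 14) did not pass the test against naive stroma.

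Cxcl12 signal was called lower in the relapse stroma than in the naive stroma, where median depths were 6242 and 16265. Its counts in the relapse stroma, at or near the floor, were 1, 1 and 3 with 2 of 14 above the limit. In the naive stroma they were 1, 5 and 38 with 12 of 15. The classes overlapped, and the highest relapse value, 11.2, equalled the naive median. Mean signal was 4.94 ± 2.60 (SD, n = 14) and the log2 change from naive -1.05 (SE 0.252, limma adjusted p = 0.00694). This comparison called 1.4% of tested targets (0.138% higher and 1.26% lower), and Cxcl12 was the single ligand among 16; the ligands' median was 0.03 and that of all tested targets 0.02. The share of calls that were higher was 9.86%, 88.2% with the same total of counts and 0.216% over the negative probes. Cxcl14 counts were 1, 1 and 14 in the relapse stroma, and its change of -0.93 did not pass (limma adjusted p = 0.0862). The Cxcl12 call was lost without naive piece 1 (-0.88, limma adjusted p = 0.064), without naive piece 3 (-0.74, limma adjusted p = 0.251) and without relapse piece 4 (-1.07, limma adjusted p = 0.433). It was also lost with the same total of counts and with counts of 1 taken as 0. With plate as a covariate it was lost too, at -0.18 (limma adjusted p = 0.933). Only the acute stroma lay on both plates, with 4 segments on G and 5 on H. The plate term rests on those segments alone, so this setting cannot separate plate from stage. Of 8 tested fibroblast markers 7 were called lower between relapse and naive stroma (median -1.95), and 4 of 9 tested keratinocyte markers were called higher. The part of these markers was not tested. Between relapse and acute stroma 1.53% of tested targets passed (0.885% higher and 0.649% lower), and 0 ligands did (8 at an unadjusted p under 0.05). Of those calls 57.7% were higher, all 106 with the same total of counts and 0.434% over the negative probes. Cxcl12 was at -0.94 (limma adjusted p = 0.0621) and Ccl6, a mouse CCR1 ligand, at 0.78 (limma adjusted p = 0.0703).

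Within the relapse slide, interface and stroma differed in 0 of 5087 tested targets (0%), with 131 at an unadjusted p under 0.05, 2 of them ligands. These were Ccl8, at -0.67 (SE 0.319), and Ccl6, at -0.44 (SE 0.196). Ccl8 counts in the relapse interface were 1, 1 and 9, with 7 of 22 above the limit, against 7 of 14 in the stroma. The difference between the slides was tested itself, as relapse interface minus stroma minus the same difference on the naive slide, and 4.19% of tested targets passed (4.07% higher and 0.118% lower); the share of calls that were higher was 97.2%, and 81.8% over the negative probes. Cxcl12 was at 1.35 (SE 0.346, limma adjusted p = 0.0107) and Cxcl16 at 0.92 (SE 0.277, limma adjusted p = 0.0345), the 2 ligands called of 16; Ccl8 at 1.396 (limma adjusted p = 0.0726) and Cxcl14 at 1.11 (limma adjusted p = 0.0898) did not pass. With piece as a fixed block Cxcl12 was at 0.86 (limma adjusted p = 0.544) and Cxcl16 at 0.71 (limma adjusted p = 0.57), and 0 of 5087 targets passed. In the same comparison 7 of 8 fibroblast markers were called higher (median 2.11). The call of Cxcl12 was lost without naive piece 3 (1.04, limma adjusted p = 0.0869), naive piece 4 (0.86, limma adjusted p = 0.418), relapse piece 2 (1.31, limma adjusted p = 0.0524) or relapse piece 4 (1.47, limma adjusted p = 0.108). That of Cxcl16, which rests on the naive stroma through the filter too, was lost without naive piece 2, 4 or 5 and without relapse piece 2, 4 or 5, at 0.65 to 0.95.

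**Figure D4:**
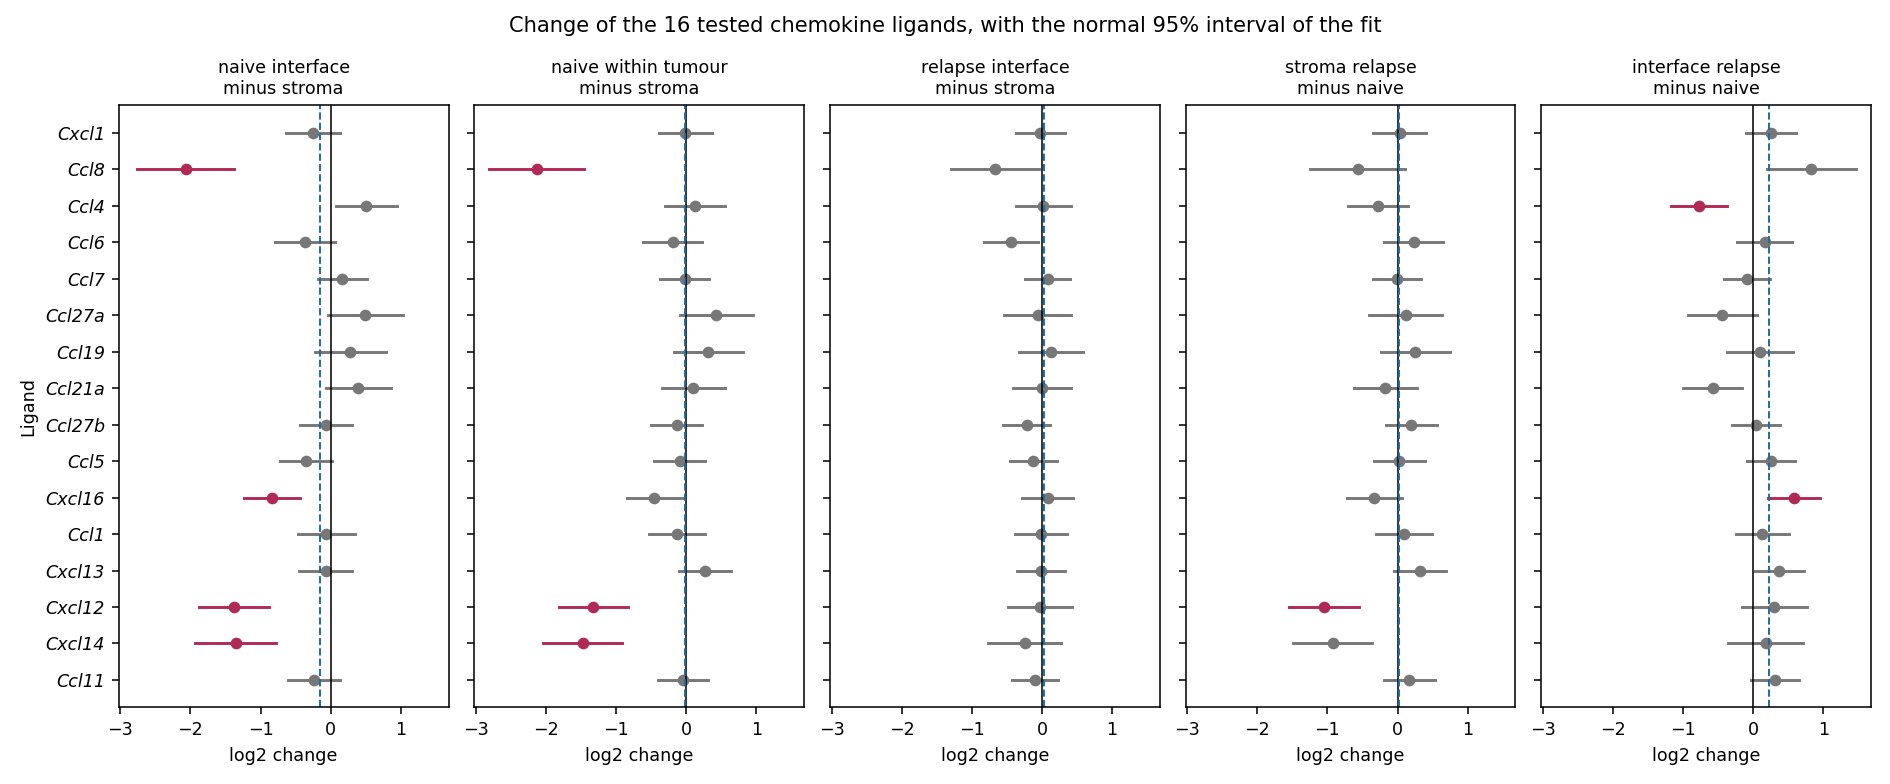
Log2 change (horizontal axis) of the 16 tested ligands with the normal 95% interval of the limma fit, in 5 comparisons; red marks an adjusted p under 0.05, the dashed blue line the median of all 5087 tested targets. Ccl8, Cxcl12 and Cxcl14 lie between -2.13 and -1.33 in both naive comparisons and no ligand is red in the relapse comparison of locations.

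Among the monocyte-attracting ligands Ccl4 had its highest detection at the naive interface. Ccl4, or MIP-1 beta, which attracts monocytes, was above the limit in 22 segments. Counts were 1, 6 and 13 in the naive interface with 10 of 13 above the limit, 1, 2 and 12 in the naive stroma (4 of 15) and 1, 2 and 8 within the tumour (3 of 14). The interface was the high class, but its values overlapped those of the other 2 naive classes. The change from stroma to interface, 0.51 (SE 0.223), did not pass (limma adjusted p = 0.13). Of the 10 interface segments above the limit 7 lay in piece 4, whose 2 stroma segments, with 6 and 10 counts, were also above it. In the acute stroma Ccl4 counts were 1, 4 and 15 and 0 of 9 segments exceeded the limit, which allows a share of up to 33.3%. The median limit there was 9.25 counts, against 2.37 in the naive interface. In the relapse interface Ccl4 counts were 1, 1 and 4 (2 of 22) and in the relapse stroma 1, 1 and 5 (2 of 14).

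Between relapse and naive interface Ccl4 was lower: 4.42 ± 1.48 (SD, n = 22) against 8.81 ± 3.93 (SD, n = 13), a log2 change of -0.77 (SE 0.206, limma adjusted p = 0.0119). This comparison called 9.77% of tested targets, with 9.36% of the tested targets higher and 0.413% lower at relapse, and its median was 0.22; of the 16 ligands 1 was called lower and 1 higher, with a median of 0.17. Of the called targets 95.8% were higher, but 0.523% over the negative probes and 18.8% with counts of 1 taken as 0. Scaled to the same total of counts 14 ligands were called, all higher, with 98.3% of tested targets called and their median at 0.91. Over the negative probes 7 were, all lower, with 48.9% of tested targets called and their median at -0.33. The relapse segments sat at or near the floor, 18 of 22 at 1 count, and 1 count is there worth 3.74, against 1.87 in the naive interface. The call was lost without naive piece 4 (-0.37, limma adjusted p = 0.583) and without relapse piece 2 (-0.80, limma adjusted p = 0.0537). Scaled to the same total of counts Ccl4 changed sign, to 0.23 (limma adjusted p = 0.341). Keratinocyte markers were called higher at the relapse interface in 7 of 9 tested (median 1.66), and their part was not tested. The second call, Cxcl16 at 0.59 (SE 0.19, limma adjusted p = 0.0334), set 20 of 22 relapse segments at 1 count against 9 of 13 naive segments, with 1 count worth 3.74 and 1.87 signal units. With counts of 1 taken as 0 Cxcl16 was at -0.01 (limma adjusted p = 0.982), and its call was lost without naive piece 2 or 4 or relapse piece 2 or 5, at 0.50 to 0.57.

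The other monocyte-attracting ligands lay nearer the limit. Ccl6 exceeded it in 13 segments, 5 of them in the naive stroma where the highest count was 15. Ccl7, a CCR2 ligand, did so in 11, 5 of them in the naive interface, with a highest count of 10. Ccl12, the mouse CCR2 ligand related to MCP-1, did so in 8 segments, Ccl3 in 5, and Ccl2, Ccl9 and Cx3cl1 in 4 each. Ccl2, the main monocyte attractant, reached 18 counts in 1 acute stroma segment and was at 1 count in 56 of 89. The RefSeq annotations of Ccl3 and Ccl4 overlap on chromosome 11, so their probes may not be independent. The genes of Ccl2, Ccl7, Ccl11, Ccl12, Ccl8 and Ccl1 also lie on chromosome 11, between 82035577 and 82179812.

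The lymphocyte-attracting ligands most often detected were Ccl27a, Ccl19 and Ccl21a. Ccl27a, a keratinocyte ligand of CCR10 on skin-homing T cells, exceeded the limit in 44 segments. Ccl19 and Ccl21a, both ligands of CCR7 that lead dendritic cells and T cells to lymph nodes, did so in 41 and 28. All 3 are members of a group on chromosome 4 (41769467 to 42773991, mm10) in which RefSeq lists 10 genes or pseudogenes of Ccl19, Ccl21 or Ccl27 type, so the probe counts are uncertain between near-identical copies. Ccl27a also overlaps Il11ra1, and Ccl27b overlaps Il11ra2. All 3 exceeded the limit together in 13 segments and at least 1 did in 61.

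Ccl27a counts were 2, 5 and 14 in the naive interface (10 of 13 above the limit), 1, 3 and 13 in the naive stroma (8 of 15) and 1, 3 and 12 within the tumour (9 of 14). In the relapse interface they were 1, 2 and 5 (7 of 22), and in the relapse stroma 1, 2 and 11 (5 of 14). Ccl27a was thus seen in every class, including 4 of 9 acute stroma segments with a highest count of 29. Ccl21a counts were 1, 4 and 12 in the naive interface (10 of 13), 1, 2 and 12 in the stroma (5 of 15) and 1, 1 and 3 in both relapse classes (1 of 14 and 2 of 22). The Ccl21a change from naive to relapse interface, -0.58 (SE 0.216), did not pass (limma adjusted p = 0.0636). Ccl19 counts were 1, 3 and 15 in the naive interface (9 of 13) and 1, 2 and 7 in the relapse interface (10 of 22). None of the 3 passed the test in any of the 9 comparisons.

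The remaining lymphocyte-attracting ligands were scattered. Ccl27b exceeded the limit in 12 segments, Ccl5 and Cxcl16 in 11, and Cxcl13 and Ccl1 in 10. Ccl5, or RANTES, which attracts T cells, had a highest count of 9. Cxcl13, the B-cell ligand of CXCR5, was above the limit in 4 of 14 tumour segments and 3 of 14 relapse stroma segments. Ccl1, a ligand of CCR8, was above it in 6 of 13 naive interface segments and in 0 of 9 acute stroma, 0 of 14 relapse stroma and 0 of 22 relapse interface segments. All targets exceeded the limit in 16.7%, 7.29%, 5.51% and 4.00% of pairs in these classes. Outside the naive interface Ccl1 (5.26% of segments), Ccl7 (7.89%) and Ccl27b (9.21%) fell under the 10% of the filter. Cxcl13 did so without the tumour class (8%) or the relapse stroma (9.33%). None of these ligands passed in any comparison. The interferon-induced CXCR3 ligands were rare: Cxcl10 exceeded the limit in 7 segments, Cxcl9 in 2 and Cxcl11 in 2. Ccl22 and Ccl17, which attract regulatory T cells through CCR4, did so in 7 and 3, Ccl25 in 5, and Ccl20 and Ccl28 in 4 each.

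The neutrophil-attracting ligands stood close to background. Cxcl1 exceeded the limit in 13 of 89 segments, Cxcl2 in 8, Cxcl3 in 7, and Cxcl5 and Cxcl15 in 6 each. Pooled counts over the negative probes were 1.54 for Cxcl1, 1.47 for Cxcl2, 1.46 for Cxcl15 and 1.28 for both Cxcl3 and Cxcl5, against 1.34 for the median target. Cxcl1, also known as KC, had counts of 1, 2 and 8 in the naive interface (4 of 13 above the limit), 1, 1 and 4 within the tumour (4 of 14) and 1, 2 and 9 in the stroma (2 of 15). In the acute stroma they were 1, 3 and 11 (0 of 9, where the median limit was 9.25 counts). In the relapse stroma they were 1, 1 and 3 (2 of 14) and in the relapse interface 1, 1 and 4 (1 of 22). These classes overlapped throughout. Cxcl1 was the only one of the 5 tested, and it passed in none of the 9 comparisons; its naive interface change was -0.25 and its acute stroma change -0.45 (limma adjusted p = 0.47 and 0.406).

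Cxcl2, or MIP-2, had a highest count of 4 or 5 in each naive and relapse class except within the tumour, where it was 3, with 1 segment above the limit in each except the relapse interface, which had 3 of 22. In the acute stroma its counts were 1, 4 and 8 with 0 of 9 above the limit, whose median there was 9.25 counts. Cxcl5, made mainly by epithelial cells, was at 1 count in 65 of 89 segments, and its highest count of 14 fell in an acute stroma segment whose limit it did not exceed. No class stood apart for Cxcl5, with 0 to 2 segments above the limit in each. At this depth a lower level of these ligands was not detectable.

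The 2 acute interface segments enter no comparison and differed from each other. In the first, with a depth of 66020 and a limit of 6.43 counts, Cxcl2 was at 24 counts, Ccl4 at 19, Ccl3 at 17 and Cxcl3 at 8, and 8 ligands exceeded the limit. The 24 counts of Cxcl2 were the highest of any segment. The same segment held 38 counts of S100a8, 46 of S100a9 and 29 of Il1b. In the second, with a depth of 65492 and a limit of 7.21 counts, Cxcl2 was at 3, Ccl4 at 3, Ccl3 at 2 and Il1b at 2 counts, whereas Ccl8 was at 24 and Cxcl12 at 13, the 2 ligands above the limit. The first segment was high for Cxcl2, Ccl4, Ccl3 and Cxcl3, the second for the stromal pair.

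The last group, the eosinophil ligands and Cxcl17, was sparse. Ccl11, or eotaxin, exceeded the limit in 12 segments with a highest count of 9 and passed in no comparison. Ccl24 and Cxcl17 did so in 6 each and Ccl26 in 2.

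Receptors of these ligands were measured at low levels in the same segments. Of 23 receptors on the panel 7 were tested. Ackr3, a scavenging receptor of Cxcl12, exceeded the limit in 16 segments, 8 of them in the naive interface, and Cxcr4, the signalling receptor, in 8. Ccr8 exceeded it in 13, Cxcr6 in 11, Ccr10 in 9, Cxcr2 in 4, Ccr7 in 3 and Ccr2 in 1. Ccr8 was the only receptor called, at 0.56 (SE 0.186, limma adjusted p = 0.0369) between relapse and naive interface, where its counts were near the floor. In that comparison 9.77% of all tested targets were called, 9.36% of them all being higher. Ccr8 exceeded the limit in 4 of 22 relapse and 2 of 13 naive interface segments. There 1 count is worth a median of 3.74 signal units at relapse and 1.87 in the naive class. Of the cytokines known to induce chemokines, Il36g exceeded the limit in 11 segments, Il6 in 10, Il1a in 9 and Il1b in 7. Tnf, Il17a and Il36a did so in 0 of 89 (up to 3.37%). The platelet chemokine Pf4, also made by macrophages, exceeded it in 29 segments, 10 of them in the naive stroma. None of the 3 tested cytokines and the 1 tested platelet chemokine passed in any comparison.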

How the data were processed

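The authors released probe tags of the GeoMx mouse Whole Transcriptome Atlas from regions chosen by morphology on fresh frozen sections, per the labels' protocols. Values in the authors' deposited matrix are signal, already divided by an upper-quartile ratio that the authors deposited for every segment. Signal times factor was whole for 99.986% of values within 1e-06 (3 targets were not), with a smallest count of 1. The genome build mm10 and Seurat are named per the submitters' processing notes; the aligner and counter are not given in the sources used here. The authors' annotation (unit: words and numbers, other) gives class, slide and positions.

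Labels give 1 group, so classes come from the annotation, and 9 comparisons were made over 89 segments on 3 slides and 2 plates. Naive segments were on plate G, relapse segments on plate H, and acute stroma on both (4 on G and 5 on H). The 17 tissue pieces are clusters of region positions more than 5000 coordinate units apart. Targets above the limit in 10% of segments were tested, 5087 in all, with limma 3.58.1 in R 4.3.3 (lmFit, eBayes with trend, two-sided, 7 class means, log2 of signal plus 1, Benjamini-Hochberg at 0.05). A fold on that scale understates the change of low targets. Upper limits of a share of 0 use 3 counts and cover counting error only. The planned count tests were not run, because the unit is signal. The fit was tested on simulated independent segments, with changes placed only in tested targets of higher counts. That test does not cover the grouping of segments in tissue pieces or changes in targets of low counts. Values by class are given for ligands in 10% of segments and for Ccl4, Cxcl1, Cxcl2 and Cxcl5; others are named by detection. The members, lists and rules were chosen with earlier results of these data known. Alternatives (12, of which 2 were added after seeing the data) and 17 leave-outs are in the closing section. Python used pandas 2.3.3, numpy 2.4.6 and matplotlib 3.10.9.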

Additional observations from a re-analysis of the deposited data

Results flagged for a closer look

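The change between stroma and interface differed between the relapse and naive slides for Cxcl12, by 1.35 (log2, SE 0.346), and for Cxcl16, by 0.92 (SE 0.277). Both differences were tested in the limma fit, and both lost their call when the tissue piece was a fixed block, where 0 of 5087 targets passed. Cxcl12 kept its call in 8 of 12 alternatives and in 13 of 17 fits without 1 piece. Cxcl16 kept its call in 5 of 11 and in 11 of 17. Cxcl16 passed the filter only with the naive stroma included.

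The first acute interface segment, which no comparison uses, exceeded the highest naive interface segment for 4 ligands. Cxcl2 signal was 22.4 against 3.74, Ccl4 17.8 against 14.96, Ccl3 15.9 against 7.48 and Cxcl3 7.48 against 6.23. With 1 such segment these differences have no replicate check. None of the 16 tested ligands had a segment standing apart in the acute stroma, the only class of 4 to 10 segments; the other ligands were not examined for this.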

How the results depend on the processing

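The fall of Ccl8 held its direction and its call in 11 of 12 alternatives between naive interface and stroma (-2.22 to -1.59) and between tumour and stroma (-2.40 to -1.09); the exception in both was the fixed block of the tissue piece. Cxcl12 and Cxcl14 each kept their call in 10 of 12 alternatives in both comparisons. Their smallest changes were -0.95 and -0.60 in the interface and -0.41 and -0.55 within the tumour. With the piece as a fixed block the calls were 0 for naive interface (main 4), 0 for tumour against stroma (main 3) and 0 for the difference between slides (main 2). With counts of 1 as 0 the counts were 1 for naive interface, 0 for relapse against naive stroma (main 1), 1 for relapse against naive interface (main 2) and 0 for the difference between slides. With the same total of counts they were 6 for tumour against stroma, 10 for tumour against interface (main 0), 0 for relapse against naive stroma, 14 for relapse against naive interface, 1 for relapse against acute stroma (main 0) and 0 for the difference between slides. In that scaling a floor of 1 count grows in shallow segments. Over the negative probes they were 3, 4, 7, 3 and 0 for tumour against interface, relapse against naive stroma, relapse against naive interface, relapse against acute stroma and the difference between slides. Without the filter they were 2, 15, 5 and 1 for tumour against interface, relapse against naive interface, relapse against acute stroma and the difference between slides. A filter at 20% gave 2 for relapse against naive stroma and 1 each for relapse against naive interface, relapse against acute stroma and the difference between slides. Depth as a covariate gave 2 and 0 for relapse against naive stroma and interface, and plate as a covariate 0 and 0. The plate term rests on the acute stroma alone, the only class on both plates. The random block of the piece (correlation 0.046) gave 0 for relapse against naive interface and 1 for the difference between slides, and only the classes compared gave 4 for relapse against naive interface. Between relapse and naive interface Ccl4 changed sign to 0.23 with the same total of counts. Cxcl16 changed sign to -0.036 over the negative probes and -0.011 with counts of 1 as 0. Beside the constructions named, the cause was not tested.

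Leaving out 1 piece gave 0 to 4 calls for naive interface, 3 to 3 for tumour against stroma, 0 to 0 for tumour against interface and for relapse interface against stroma, 0 to 1 for acute against naive stroma (1 without acute piece 1), 0 to 2 for relapse against naive stroma, 0 to 4 for relapse against naive interface, 0 to 1 for relapse against acute stroma and 0 to 4 for the difference between slides (0 without naive piece 4, relapse piece 2 or relapse piece 4, and 4 without relapse piece 3). With 3 geometric SDs of the negative probes 8 ligands exceeded the limit in 10% of segments, and 35 with the geometric mean alone, against 16. The edgeR and DESeq2 tests were not run, since the deposited unit is signal. The labels give no replicate numbers that pair segments; the tissue piece was the only block used.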
